A study of Mus musculus with 74 samples.

Results

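The comparison sets epithelium of the forestomach against epithelium of the small intestine in the mouse embryo at embryonic day 12 (E12). It holds 4 RNA-seq libraries, 2 labelled forestomach and 2 labelled small intestine, of 31 RNA-seq libraries among 74 samples in the series, and their groups were taken from the labels, with no measured value in that rule. All 4 came from CD1 wild-type embryos with no treatment, and the labels give the cells of the small intestine libraries as midgut epithelium. Per the labels' protocols, trypsin-digested tissue was sorted for cells carrying Epcam, an epithelial surface protein, and 75 bp single-end reads were made from a low-input SMARTer kit. E14 forestomach, hindstomach and small intestine, and E12 hindstomach, each with 2 libraries of the same strain and genotype, serve below as points of reference. The labels do not say whether replicates came from separate litters, so p-values measure only a spread between libraries. That spread was estimated over all 27 embryonic libraries in 13 groups, and not from these 4 alone. The small intestine replicates differed more than those of forestomach, as given below. Total counts were 22816596 and 30881562 in forestomach replicates 1 and 2, and 25311636 and 26147081 in small intestine replicates 1 and 2. The comparison asks which genes separate the 2 epithelia at the earliest stage for which counts of both were used here.

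The gut tube is patterned along its length by transcription factors. Sox2 marks the foregut, from which oesophagus, stomach and airway arise, and Cdx2 marks the midgut and hindgut. In the mouse the forestomach later becomes a stratified squamous epithelium, the hindstomach a glandular one, and the small intestine a columnar absorptive one with villi. Hedgehog, Wnt, BMP, FGF and retinoic acid signals pass between epithelium and mesenchyme while these fates are set.

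The labels were first read against marker genes, in CPM, a gene's count scaled by the library's total and its TMM factor. Epcam was at 841 and 834 CPM in forestomach and at 857 and 833 CPM in small intestine. The keratin gene Krt8 was at 1290 and 1324 CPM in forestomach and at 960 and 892 CPM in small intestine, so both groups carried epithelial RNA at like levels. Gata4, a factor of the glandular stomach and the proximal intestine that the mature forestomach is known to lack, was at 277 and 273 CPM in the E12 forestomach libraries. It was at 55.7 and 58.1 CPM in E14 forestomach and at 358 and 338 CPM in E14 hindstomach. Pdx1, a factor of the distal stomach, duodenum and pancreas, was at 27.5 and 24.6 CPM in E12 forestomach, at 1.67 and 3.69 CPM in E14 forestomach and at 32.6 and 31.4 CPM in E14 hindstomach. Nkx6-3, a factor of the distal stomach, was at 40.7 and 47.9 CPM in E12 forestomach, had 0 counts in both E14 forestomach libraries and was at 54.5 and 55.2 CPM in E14 hindstomach. For these 3 genes the libraries labelled E12 forestomach stood nearer to E14 hindstomach than to E14 forestomach. So did Nkx6-2, at 149 and 158 CPM against 48.5 and 48.7 CPM in E14 hindstomach and 3 and 2 counts in E14 forestomach. Trp63, the p63 gene of basal cells, was at 15.05 and 11.96 CPM in E12 forestomach, at 455 and 458 CPM in E14 forestomach and at 7.55 and 7.93 CPM in E14 hindstomach. Krt5, a keratin gene of the same cells, was at 3.45 and 3.83 CPM, at 352 and 380 CPM and at 2.36 and 2.78 CPM in that order. Krt8 was at 987 and 1023 CPM in E14 forestomach and at 1375 and 1415 CPM in E14 hindstomach, also nearer the latter. Other genes went the other way: Cldn18, a claudin gene of the glandular stomach, was at 12.5 and 15.1 CPM in E12 forestomach, at 13.4 and 13.1 CPM in E14 forestomach and at 300.3 and 262 CPM in E14 hindstomach. Sox2 was at 185 and 160 CPM, at 190 and 153 CPM and at 92.3 and 68.2 CPM in the same order. Across genes their Spearman correlation was 0.953 to 0.956 with E14 hindstomach, 0.942 to 0.946 with E14 forestomach and 0.937 to 0.942 with E14 small intestine, as a description. Whether they hold cells from outside the forestomach was not tested, and "forestomach" below means libraries so labelled.

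The E12 libraries labelled hindstomach, which enter no contrast here but share the estimate of the spread, also stood apart from their label. Hoxb13, a gene of the posterior body, was at 150 and 159 CPM there, against 0.135 CPM or less in the other 4 E12 libraries. Gata4 was at 0.369 and 0.569 CPM in them and Cdx2 at 116 and 160 CPM. Without these 2 libraries the fit gave 944 genes higher and 846 lower in forestomach, against 926 and 814 with them.

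Small intestine replicate 1 stood apart from the other E12 libraries. It held 12675 genes above 3 counts, where the other 5 E12 libraries held 14770 to 15346 at like depth. Among genes with a median of 2 to 5 CPM in the other 5 libraries, 25.4% were at 3 counts or fewer in it, against 1.60% to 3.06% in each of the other 5. Across genes, Spearman's correlation between replicates was 0.947 in small intestine and 0.984 in forestomach, a description over genes and not a test. Small intestine replicate 2 correlated at 0.955 and 0.953 with forestomach replicates 1 and 2, above its value with its own replicate. Small intestine replicate 1 correlated with them at 0.925 and 0.923. Genes more than 4-fold apart between replicates numbered 2891 in small intestine and 904 in forestomach. The values of both small intestine libraries are therefore given throughout.

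**Figure D1:**
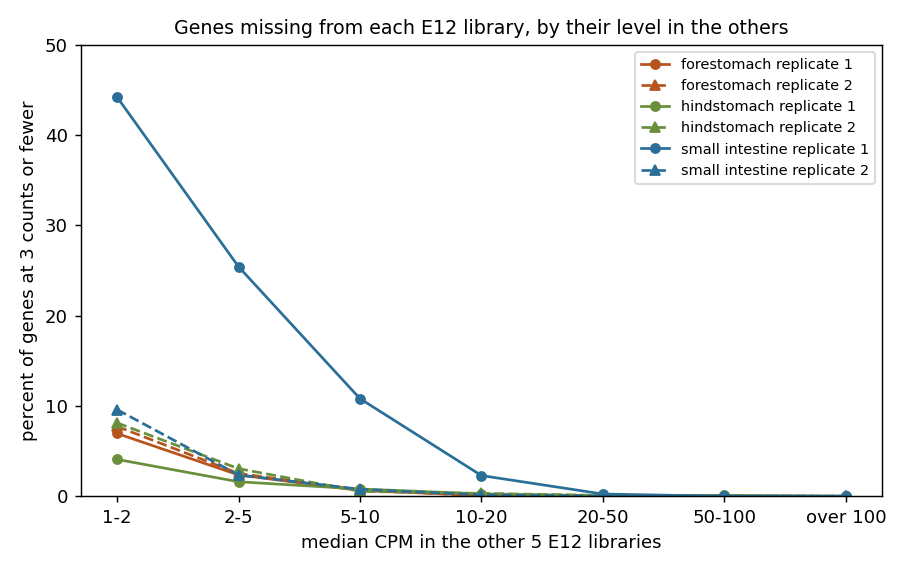
Percent of genes at 3 counts or fewer (y axis) in each of the 6 E12 libraries, by the median CPM of the gene in the other 5 (x axis, 7 bins); solid lines are replicate 1 and dashed lines replicate 2. Small intestine replicate 1 lies above the other 5 in the bins up to 10-20 CPM, where it is at 2.29%.

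Between the 2 epithelia, 1740 of 17239 genes tested were called, or 10.1%. A gene was called when edgeR's adjusted p was under 0.05 and its log2 fold change, forestomach minus small intestine, was at least 1 in size. Of these, 926 (5.37%) were higher in forestomach and 814 (4.72%) lower. The libraries of the 2 groups did not overlap in 889 of the higher calls (5.16% of genes tested) and in 726 of the lower calls (4.21%). The higher calls lay at lower levels: 360 of the 926 had 3 counts or fewer in both small intestine libraries and a further 156 in replicate 1 alone. Of the 814 lower calls, 158 had 3 counts or fewer in both forestomach libraries.

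These counts depended on what was fitted with the 4 libraries. With only the 4 libraries in the fit, 75 genes were called higher and 113 lower, and 74 and 107 of these were among the calls above. Without small intestine replicate 1, 711 were called higher and 817 lower, of which 507 and 546 were shared, the remaining small intestine library being assumed to vary like the other groups. The balance of higher against lower calls therefore went the other way in both of those fits. Without small intestine replicate 2 the counts were 2677 and 1303, and with forestomach replicate 2 left out they were 647 and 455. No call changed to a call in the other direction in any of the alternatives tried. Of the 116 called genes named below, not counting Alb, 39 remained called with only the 4 libraries, 94 remained called without small intestine replicate 1, and 34 remained called in every alternative.

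**Figure D2:**
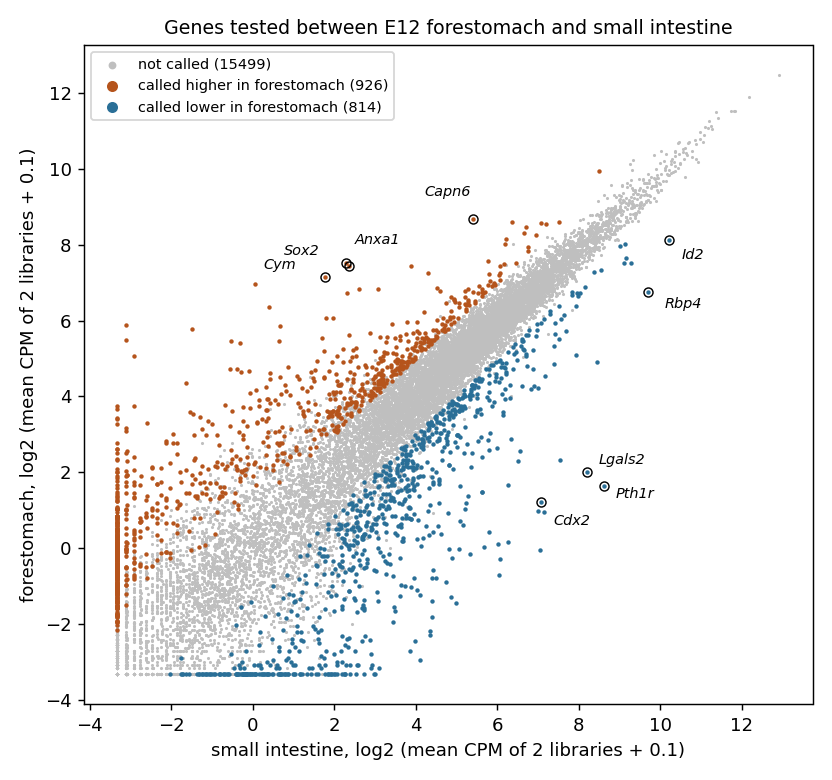
Mean CPM in small intestine (x axis) and in forestomach (y axis), each log2 with 0.1 added, for the 17239 genes tested; orange points are the 926 genes called higher in forestomach and blue points the 814 called lower. Many higher calls sit at the left edge, at or near 0 in small intestine, and labelled genes such as Cdx2 and Sox2 lie far from the diagonal at moderate levels.

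Cdx2, the homeobox gene of the intestinal epithelium, was at 2.33 and 2.15 CPM in forestomach and at 153 and 115 CPM in small intestine. Both forestomach libraries lay far below both of small intestine, with a log2 fold change of -5.90 (SE 0.36, adjusted p = 2.86e-09 by edgeR), and the call held in every alternative. The 66 and 83 counts in forestomach were above the floor of 3 counts. Isx, a homeobox gene of the intestine that represses vitamin A uptake genes, was at 3.10 and 0.595 CPM in forestomach and at 146 and 136 CPM in small intestine, a log2 fold change of -6.31 (SE 0.79).

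Of 20 intestinal transcription factor genes tested, 4 were lower in forestomach, 1 was higher and 15 were not called, or 25% called beside 10.1% of all genes, with a median log2 fold change of -0.62 (-0.70 to -0.40 with 1 library left out) beside a median of 0 over all genes tested. Besides Cdx2 and Isx, the lower ones were Nr1h4 and Onecut2. Nr1h4, which encodes the bile acid receptor, had 0 counts in both forestomach libraries and 162 and 108 counts in small intestine. Its mean CPM there was at least 42.2-fold higher, against a floor of 3 counts in the library where 3 counts are worth most. Later bounds are likewise of the group mean and not of each library. Onecut2, a cut-homeodomain factor gene of endoderm, was at 21.8 and 14.5 CPM in forestomach and at 106 and 120 CPM in small intestine, a log2 fold change of -2.64 (SE 0.24). The 1 higher gene, Tcf7l2, which encodes a Wnt-responsive factor, was at 126 and 119 CPM in forestomach and at 43.9 and 66.0 CPM in small intestine. Its call was lost without small intestine replicate 1 and with only the 4 libraries, where that of Nr1h4 was lost too. The list gave 2 higher and 5 lower without small intestine replicate 2, and without forestomach replicate 2 it gave 2 and 4.

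Several factors known for their intestinal role were present in both epithelia. Hnf4a, a nuclear receptor gene of enterocytes and hepatocytes, was at 42.1 and 59.3 CPM in forestomach and at 63.8 and 50.4 CPM in small intestine, with a log2 fold change of -0.17 (SE 0.34, adjusted p = 0.811 by edgeR). The groups overlapped. Gata4 was at 195 and 145 CPM in small intestine, below both forestomach libraries, with a log2 fold change of 0.70 (SE 0.21, adjusted p = 0.029 by edgeR) that missed the fold minimum. Pdx1 was at 33.6 and 41.0 CPM in small intestine, a log2 fold change of -0.52 (SE 0.41, adjusted p = 0.413 by edgeR).

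Of 24 foregut and stomach transcription factor genes tested, 11 were higher in forestomach and 3 lower, or 58.3% called beside 10.1% of all genes, and the median log2 fold change was 1.98. Its value was 0.997 without small intestine replicate 1, 1.15 without forestomach replicate 2 and 4.07 without small intestine replicate 2. The list gave 5 higher and 2 lower with voom and 3 higher and 2 lower with only the 4 libraries. Sox2 was at 185 and 160 CPM in forestomach and at 6.63 and 3.41 CPM in small intestine, a log2 fold change of 5.11 (SE 0.49, adjusted p = 1.88e-06 by edgeR). Sox21, a related gene, was at 119 and 132 CPM in forestomach and at 0.0338 and 1.85 CPM in small intestine, a log2 fold change of 7.03 (SE 0.59). Both libraries of forestomach stood far above both of small intestine for each gene.

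Irx5, an Iroquois homeobox gene, was at 30.6 and 36.1 CPM in forestomach with 0 and 2 counts in small intestine, at least 328-fold higher. Tbx1, a T-box gene of the pharyngeal region, was at 5.18 and 6.96 CPM in forestomach with 0 counts in both small intestine libraries, at least 59.8-fold higher. Pax9, a paired-box gene of foregut endoderm, was at 1.83 and 2.74 CPM with 0 counts in small intestine, at least 22.5-fold higher. Trp63, which encodes the p63 factor of basal cells in stratified epithelia, was still low, at 15.05 and 11.96 CPM in forestomach and at 0 and 1.05 CPM in small intestine. With only the 4 libraries in the fit, Sox2 and Irx5 remained called and Sox21, Tbx1, Pax9 and Trp63 did not. Pax9 also lost its call without forestomach replicate 2 and without small intestine replicate 1.

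The list also held genes of other organs and genes lower in forestomach. Nkx2-1, the factor gene of lung and thyroid buds, was at 11.98 and 11.9 CPM in forestomach and at 0.169 and 0.319 CPM in small intestine, a log2 fold change of 5.58 (SE 0.96). Hhex, a homeobox gene of liver and ventral foregut, was at 15.6 and 18.9 CPM in forestomach and at 57.4 and 52.7 CPM in small intestine, a log2 fold change of -1.67 (SE 0.26). Gata3 was at 1.06 and 0.725 CPM in forestomach and at 4.87 and 1.69 CPM in small intestine, and its call was lost in 8 of 14 alternatives, among them those without forestomach replicate 1, forestomach replicate 2 or small intestine replicate 1. Nkx6-2, a homeobox gene outside the list that was chosen after its values were seen, was at 149 and 158 CPM in forestomach and at 20.6 and 18.4 CPM in small intestine, a log2 fold change of 2.98 (SE 0.33). Nkx6-3, chosen likewise, was at 2.84 and 0.0637 CPM in small intestine, a log2 fold change of 4.94 (SE 0.79), and its call was lost with only the 4 libraries.

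**Figure D3:**
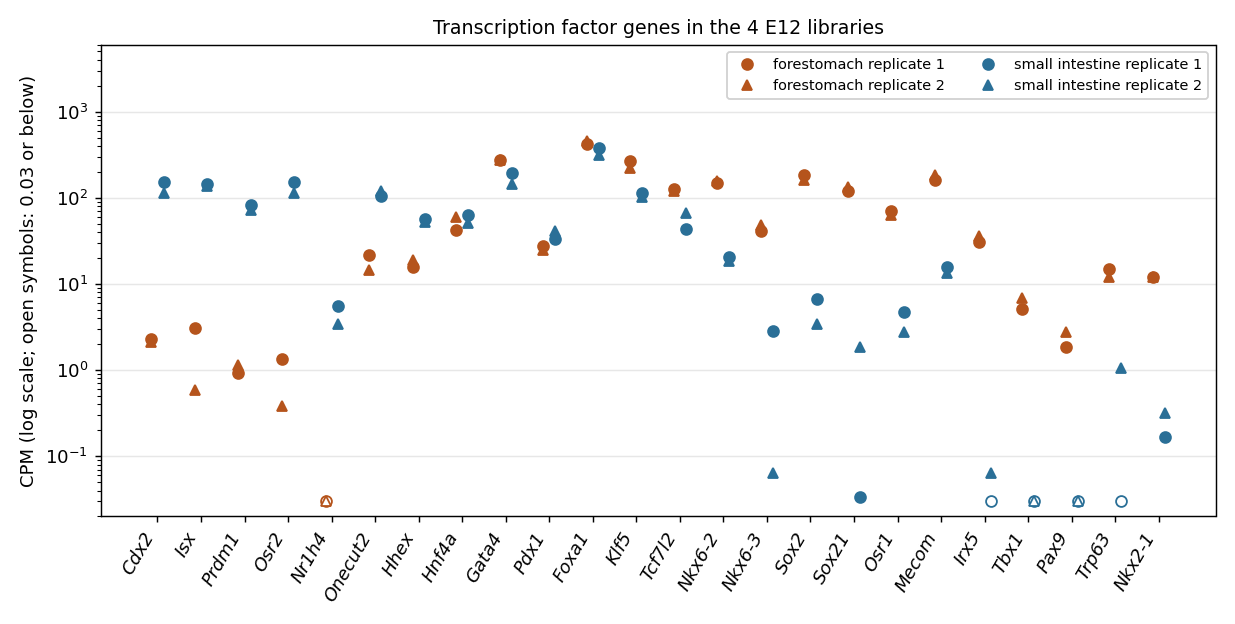
CPM on a log axis of 24 transcription factor genes in the 4 E12 libraries; orange symbols are forestomach, blue symbols small intestine, circles replicate 1 and triangles replicate 2, and open symbols mark 0.03 CPM or below. From Cdx2 to Hhex the blue symbols lie above the orange, for Hnf4a they interleave, and from Nkx6-2 onward the orange lie above the blue.

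Among 15 factor genes shared by endoderm and other epithelia, 6 were higher in forestomach and 1 lower, or 46.7% called beside 10.1% of all genes. Grhl3, a Grainyhead factor gene of barrier epithelia, was at 8.07 and 8.57 CPM in forestomach and at 0 and 1.37 CPM in small intestine, a log2 fold change of 3.57 (SE 0.65). Grhl2 was at 51.9 and 67.5 CPM against 19.5 and 30.4 CPM, a log2 fold change of 1.26 (SE 0.22). Klf5, a Kruppel-like factor gene of proliferating epithelium, was at 270 and 224 CPM against 113 and 101 CPM, a log2 fold change of 1.20 (SE 0.18). Ovol2, a zinc finger gene that restrains mesenchymal genes, was at 15.9 and 18.6 CPM against 1.15 and 7.46 CPM. Sox9, a factor gene of epithelial progenitors, was the 1 lower member, at 150 and 171 CPM against 451 and 295 CPM, a log2 fold change of -1.21 (SE 0.16). Foxa1, a pioneer factor gene of endoderm, was at 421 and 462 CPM in forestomach and at 374 and 316 CPM in small intestine and was not called (log2 fold change 0.36, SE 0.16, adjusted p = 0.129 by edgeR). With only the 4 libraries, Klf5 remained called and Grhl3, Grhl2, Ovol2 and Sox9 did not. The higher members numbered 3 without forestomach replicate 2, and no member was called lower without small intestine replicate 1. Grhl2 and Sox9 lost their calls without small intestine replicate 1, and Ovol2 without forestomach replicate 2.

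Of 35 Hox genes tested, 4 were higher in forestomach, 2 lower and 29 not called, so that 17.1% were called beside 10.1% of all genes. The median log2 fold change was -0.11, and -0.32 to 0.0087 with 1 library left out. Hox genes are expressed in overlapping domains along the body axis in the order of their position in each cluster. Hoxc4 was at 23.7 and 19.98 CPM in forestomach and at 0.71 and 1.78 CPM in small intestine, a log2 fold change of 4.12 (SE 0.43). Its neighbour Hoxc5 was at 24.8 and 28.2 CPM in forestomach and at 0 and 1.34 CPM in small intestine, a log2 fold change of 5.28 (SE 0.91). The other 4 called Hox genes were lower in level. Hoxb1 and Hoxb9 were under 0.6 CPM in each forestomach library and at 1 count or fewer in small intestine, Hoxb5 was at 1.09 and 0.906 CPM against 7.61 and 3.98 CPM, and Hoxd4 had 0 counts in forestomach and 9 and 20 counts in small intestine. None of the 35 was called with only the 4 libraries, where 18 were tested. The list gave 2 higher and 4 lower without small intestine replicate 1, 7 and 3 without small intestine replicate 2, 2 and 1 without forestomach replicate 1, and 3 and 1 without forestomach replicate 2. Hoxb1 lost its call with any 1 of the 4 libraries left out, Hoxb9 without forestomach replicate 1 or small intestine replicate 1, and Hoxd4 with either 1 of the forestomach replicates left out.

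Enterocyte genes, which serve absorption and the brush border, were mostly lower where they were called. Of 32 tested, 16 were lower in forestomach, 2 were higher and 14 were not called, or 56.25% called beside 10.1% of all genes, and the median log2 fold change was -2.23, or -1.57 with genes at the floor set to their bound. Without small intestine replicate 2 the median was -0.97. Apob, which encodes the structural protein of lipoproteins, was at 0.881 and 0.569 CPM in forestomach and at 52.4 and 82.4 CPM in small intestine, a log2 fold change of -6.56 (SE 0.46, adjusted p = 1.01e-08 by edgeR). Apoa1, an apolipoprotein gene chosen after its values were seen, was at 32.4 and 26.97 CPM in forestomach and at 356 and 337 CPM in small intestine, a log2 fold change of -3.55 (SE 0.19). The 2 genes are also known in liver and yolk sac endoderm, and liver markers are given below.

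Fabp1, which encodes a fatty acid binding protein of enterocytes and liver, was at 0.493 and 0.155 CPM in forestomach and at 15.8 and 18.5 CPM in small intestine, a log2 fold change of -5.80 (SE 0.63). Genes of the brush border were among the lower ones at modest levels. Myo7b, a myosin gene of microvilli, had 0 and 1 counts in forestomach and was at 11.8 and 5.03 CPM in small intestine, at least 79.5-fold higher there. Cdhr5, a cadherin gene of the links between microvilli, was at 0.74 and 0 CPM in forestomach and at 23.9 and 8.76 CPM in small intestine. Of the higher members, Myo1a, another brush border myosin gene, was at 1.52 and 3.44 CPM in forestomach and at 0 and 0.574 CPM in small intestine. Without small intestine replicate 1 the list gave 18 lower and 1 higher, and with only the 4 libraries 6 lower and 0 higher of 25 tested. Without forestomach replicate 2 it gave 13 lower and 0 higher. Myo1a lost its call in that fit.

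Promoter sequences from RefSeq (build GRCm38.p6) were matched by symbol to 12705 of the 17239 genes tested, as the window from 250 bases before to 50 bases after the start. The letters TTTATNG, a core of the CDX site, were found on either strand in 7.72% of all these windows, in 10.9% of those of 595 genes called lower and in 9.67% of those of 662 genes called higher. The letters CAAAGTC, of the HNF4 site, were in 4.16%, 5.21% and 5.14%, and the letters CATTGTT, of the SOX site, in 2.13%, 1.85% and 2.72%. A match is a description of letters and no test was made. Among the called genes named in the text, CDX letters stood in 6 lower and 4 higher, HNF4 letters in 3 lower and 1 higher, and SOX letters in 1 lower and 3 higher. Cym and Anxa1, for example, are higher in forestomach and held CDX letters. The 3 promoters below were picked as examples of what a match looks like in genes called in each direction, and not as evidence of a link. Each is given as the 250 bases before the start, printed 5′ to 3′ on the gene's strand with the matching letters in capitals.
Fabp1, lower in forestomach, chr6:71199629-71199878 (plus strand), TTTATNG or its reverse complement in capitals: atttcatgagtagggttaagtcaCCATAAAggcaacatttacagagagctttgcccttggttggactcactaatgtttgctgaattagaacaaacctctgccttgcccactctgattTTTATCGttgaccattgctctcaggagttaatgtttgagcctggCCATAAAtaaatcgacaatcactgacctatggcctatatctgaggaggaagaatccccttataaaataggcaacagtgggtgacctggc
Lgals2, lower in forestomach, chr15:78855530-78855779 (minus strand), TTTATNG in capitals: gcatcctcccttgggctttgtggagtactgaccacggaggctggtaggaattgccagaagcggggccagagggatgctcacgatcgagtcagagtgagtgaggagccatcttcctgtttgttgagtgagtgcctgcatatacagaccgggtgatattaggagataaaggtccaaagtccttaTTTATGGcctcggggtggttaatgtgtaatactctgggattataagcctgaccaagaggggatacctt
Vsig1, higher in forestomach, chrX:140907358-140907607 (plus strand), the reverse complement of CATTGTT in capitals: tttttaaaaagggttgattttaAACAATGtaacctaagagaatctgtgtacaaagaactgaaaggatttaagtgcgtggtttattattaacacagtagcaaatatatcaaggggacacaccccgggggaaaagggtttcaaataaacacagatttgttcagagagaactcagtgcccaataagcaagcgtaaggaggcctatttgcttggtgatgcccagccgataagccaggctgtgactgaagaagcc

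Genes of squamous epithelium were higher in forestomach in 7 of 25 tested and lower in 2, or 36% called beside 10.1% of all genes. The median log2 fold change of the list was 0, and 0 to 1.64 with 1 library left out, the highest without small intestine replicate 2. Krt15, a keratin gene of basal cells, was at 20.6 and 19.95 CPM in forestomach and at 0 and 0.446 CPM in small intestine, a log2 fold change of 6.44 (SE 0.67). Krt5, the partner keratin gene of the basal layer, was at only 3.45 and 3.83 CPM in forestomach and had 1 and 2 counts in small intestine, at least 35.9-fold higher. Lypd2, which encodes a protein of the Ly6 family, was at 5.21 and 5.69 CPM in forestomach and at 0 and 0.35 CPM in small intestine, a log2 fold change of 4.89 (SE 0.55). Itgb4, the integrin gene of hemidesmosomes, was at 8.53 and 8.31 CPM against 1.79 and 2.93 CPM, a log2 fold change of 1.83 (SE 0.22). Krt7, a keratin gene of simple and transitional epithelia chosen after its values were seen, was at a far higher level, 337 and 297 CPM against 102 and 100 CPM, and its call held in every alternative. The 2 lower members were Lor, of the cornified envelope, and Upk3a, of urothelium, each under 1.1 CPM in both forestomach libraries and at 1.34 to 5.07 CPM in small intestine. With only the 4 libraries, 1 member of the list was called higher and 0 lower. The lower members numbered 4 without small intestine replicate 2 and 1 with any 1 of the other 3 libraries left out. Krt5 lost its call without small intestine replicate 1, and Lor and Upk3a with any library but small intestine replicate 2 left out.

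Among 16 gastric gland and surface genes, 3 were higher in forestomach and 2 lower, or 31.25% called beside 10.1% of all genes. Cldn18, a claudin gene of stomach and lung, was at 12.5 and 15.1 CPM in forestomach and at 2.30 and 0.574 CPM in small intestine, a log2 fold change of 3.27 (SE 0.36). Vsig1, which encodes a junction protein of the stomach, was at 20.1 and 26.3 CPM against 0.0338 and 3.98 CPM, a log2 fold change of 3.51 (SE 0.66). Muc5ac, the mucin of gastric surface cells, had 4 and 36 counts in forestomach and 0 in small intestine. Tff2 and Gkn3, of mucous neck and surface cells, were the lower ones, with Gkn3 at 1.06 and 1.22 CPM against 5.11 and 7.55 CPM and Tff2 at 0.388 and 0 CPM against 2.23 and 1.85 CPM. No member was called with only the 4 libraries, where 7 were tested. Muc5ac lost its call without forestomach replicate 2 or small intestine replicate 1.

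Of 15 genes in the claudin list, which build tight junctions, 0 were higher and 2 were lower in forestomach, or 13.3% called, near the 10.1% of all genes. The list left out Cldn18, a claudin gene called higher and counted above among the gastric genes. No member of the claudin list was called with only the 4 libraries, where 13 were tested. Cldn2, of cation-permeable junctions, was at 0.0352 and 0.414 CPM in forestomach and at 5.24 and 7.77 CPM in small intestine, a log2 fold change of -4.68 (SE 0.74). Cldn11 had 3 and 0 counts in forestomach and 18 and 72 in small intestine, at least 13.7-fold higher there by the group mean. Cldn7 was at 292 and 275 CPM in forestomach and at 489 and 485 CPM in small intestine, a log2 fold change of -0.78 (SE 0.13, adjusted p = 0.000283 by edgeR) that missed the fold minimum although the groups did not overlap. The lower members numbered 1 with either 1 of the forestomach replicates left out, and 1 claudin gene was higher without small intestine replicate 2. Cldn11 lost its call without small intestine replicate 2 and with either 1 of the forestomach replicates left out.

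**Figure D4:**
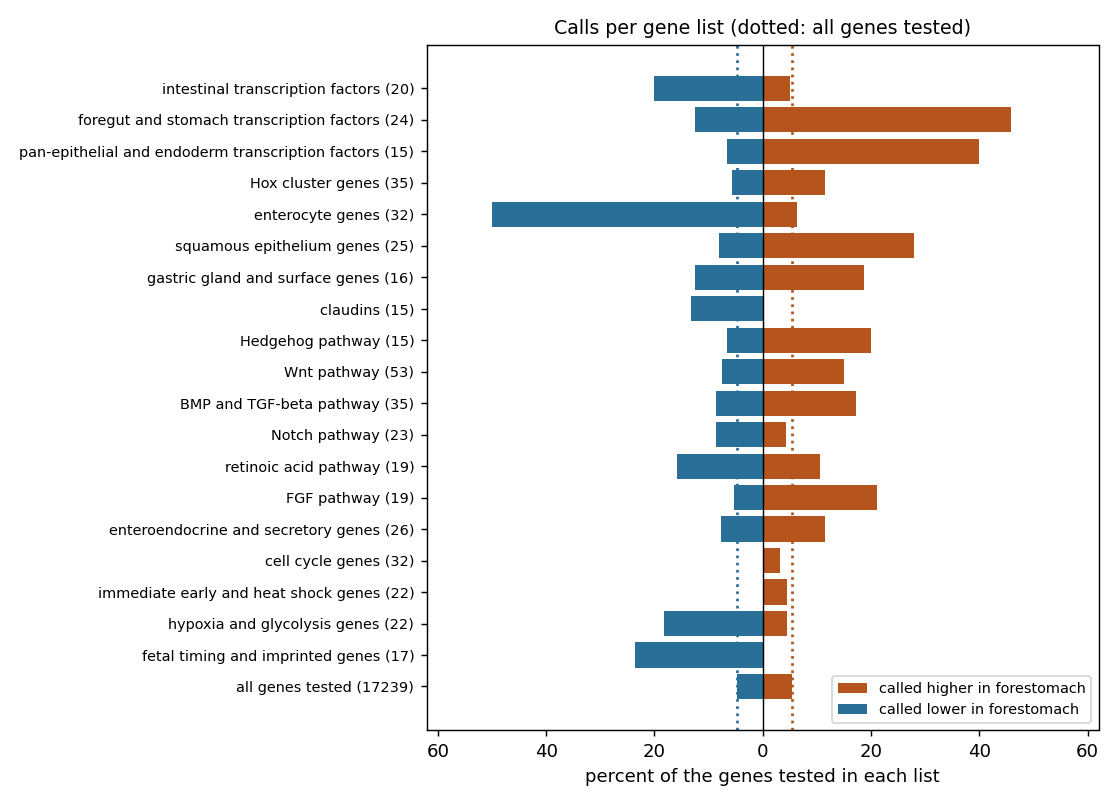
Percent of the genes tested in each list that were called higher (orange, to the right) or lower (blue, to the left) in forestomach, with the number tested in parentheses, for the 19 lists other than cell type markers; dotted lines mark all genes tested, at 5.37% and 4.72%. Of the lists drawn, the enterocyte list reaches furthest to the left, with 16 of 32, and the foregut and stomach factors furthest to the right, with 11 of 24.

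Both Hedgehog ligands known in gut epithelium were present in the 2 organs. Shh was at 104 and 96.4 CPM in forestomach and at 153 and 166 CPM in small intestine, a log2 fold change of -0.67 (SE 0.26, adjusted p = 0.083 by edgeR). Ihh was at 171 and 179 CPM in forestomach and at 136 and 139 CPM in small intestine, a log2 fold change of 0.35 (SE 0.18, adjusted p = 0.185 by edgeR). Neither passed the test, although the libraries of the 2 groups did not overlap for either. Of 15 pathway genes, 3 were higher in forestomach and 1 lower, or 26.7% called beside 10.1% of all genes. None of the 15 was called with only the 4 libraries, with only the 6 E12 libraries or with voom. The receptor gene Ptch1 was at 9.73 and 14.1 CPM against 0.778 and 6.34 CPM, and Sufu, which encodes a repressor of Gli factors, was at 39.8 and 46.4 CPM against 14.6 and 24.3 CPM. Dhh, the third ligand, had 34 and 17 counts in forestomach and 0 in small intestine, and the co-receptor gene Gas1 was lower, at 6.73 and 7.32 CPM against 11.8 and 28.1 CPM. The pathway gave 0 higher and 1 lower without small intestine replicate 1, 6 and 0 without small intestine replicate 2, and 1 and 0 with either 1 of the forestomach replicates left out. Sufu lost its call without forestomach replicate 2 or small intestine replicate 1, Ptch1 with any library but small intestine replicate 2 left out, Dhh with any but forestomach replicate 2, and Gas1 with any but small intestine replicate 1.

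Of 53 Wnt pathway genes, 8 were higher in forestomach and 4 lower, or 22.6% called beside 10.1% of all genes, with a median log2 fold change of 0.31. That median was 0.144 without forestomach replicate 1, 0.022 without forestomach replicate 2, 0.042 without small intestine replicate 1 and 1.06 without small intestine replicate 2. Lgr5, a receptor gene and target of Wnt signals known for marking intestinal stem cells, was at 13.7 and 16.1 CPM in forestomach and at 1.29 and 1.43 CPM in small intestine, a log2 fold change of 3.45 (SE 0.36, adjusted p = 2.20e-06 by edgeR). At this stage the gene was higher in the libraries labelled forestomach in both replicates, a call lost with only the 4 libraries and under voom with sample quality weights. Nkd1, a feedback inhibitor gene, was at 9.62 and 9.91 CPM against 0 and 1.94 CPM. Notum, which encodes a secreted inhibitor, was at 20.9 and 17.3 CPM against 5.17 and 0.0319 CPM, so that the 2 small intestine libraries were themselves far apart, and its call was lost with either 1 of the forestomach replicates left out. The ligand gene Wnt2 was called at the floor, with 2 and 13 counts in forestomach and 0 in small intestine, and the call was lost in 11 of the 13 alternatives that gave it a value.

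The 4 lower Wnt pathway genes were modulators, a ligand and a target. Sfrp5, which encodes a secreted inhibitor, was at 32.0 and 36.0 CPM in forestomach and at 267 and 224 CPM in small intestine, a log2 fold change of -2.85 (SE 0.31). Wnt5a, a ligand gene better known in mesenchyme, was at 2.40 and 4.22 CPM against 24.6 and 22.9 CPM, a log2 fold change of -2.84 (SE 0.44). Dkk2, another secreted modulator gene, had 1 and 0 counts in forestomach and was at 4.97 and 5.19 CPM in small intestine, at least 48.1-fold higher there. Ascl2, a factor gene of crypt base cells in the adult, was at 0.388 and 0.699 CPM against 6.39 and 2.93 CPM. The receptor gene Fzd7 was at 96.4 and 99.4 CPM in forestomach and at 47.0 and 52.7 CPM in small intestine, a log2 fold change of 0.97 (SE 0.17) that missed the fold minimum. With only the 4 libraries, Sfrp5 was the 1 member called. Without forestomach replicate 2 the pathway gave 4 higher and 3 lower, and without small intestine replicate 2 it gave 12 and 6, against 8 and 4 with all libraries. Dkk2 lost its call without forestomach replicate 2.

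In the BMP and TGF-beta pathway, 6 of 35 genes were higher in forestomach and 3 lower, or 25.7% called beside 10.1% of all genes. The fit of only the 4 libraries gave 1 higher and 1 lower of 30 tested. Of the Id genes, which encode inhibitors of helix-loop-helix factors and are known targets of BMP, Id4 was called higher and Id2 lower, and Id1 and Id3 were not called. Id4 was at 117 and 111 CPM in forestomach and at 8.18 and 3.82 CPM in small intestine, a log2 fold change of 4.25 (SE 0.33). Id2 was at 281 and 277 CPM in forestomach and at 1101 and 1270 CPM in small intestine, a log2 fold change of -2.09 (SE 0.15). Both calls held in every alternative. Of the ligands, Tgfb2 was at 15.05 and 10.48 CPM in forestomach and at 0.0338 and 1.69 CPM in small intestine, and Bmp4 was at 2.33 and 2.51 CPM against 16.5 and 5.13 CPM. Fst, which encodes an activin antagonist, was at 0.916 and 0.311 CPM against 7.03 and 6.60 CPM. Smad9 and Bmp3 were called higher at under 1 CPM in forestomach and at 1 count or fewer in small intestine. Without small intestine replicate 1 the pathway gave 4 higher and 5 lower, without small intestine replicate 2 it gave 12 and 4, without forestomach replicate 1 it gave 6 and 5, and without forestomach replicate 2 it gave 4 and 1. Bmp3 lost its call with any 1 of the 4 libraries left out, Bmp4 with any but small intestine replicate 2, and Fst without forestomach replicate 2.

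Of 23 Notch pathway genes, 1 was higher and 2 lower, or 13.04% called, near the 10.1% of all genes. No member was called with only the 4 libraries, where 20 were tested. Lfng, which encodes a glycosyltransferase that modifies Notch receptors, was at 10.01 and 14.8 CPM in forestomach and at 0.135 and 2.20 CPM in small intestine, a log2 fold change of 3.39 (SE 0.59). The 2 lower calls, Hey2 and Heyl, rested on small intestine replicate 2 alone, since both genes had 0 counts in the other 3 libraries. Hes1, a main target gene of Notch, was at 231 and 210 CPM against 207 and 208 CPM and did not pass the test (log2 fold change 0.09, SE 0.31, adjusted p = 0.927 by edgeR). The pathway gave 4 higher and 1 lower without small intestine replicate 2, and with either 1 of the forestomach replicates left out it gave 1 and 0. Hey2 and Heyl lost their calls with any library but small intestine replicate 1 left out.

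Of 19 retinoic acid genes, 2 were higher and 3 lower, or 26.3% called beside 10.1% of all genes. Rbp4, which encodes the plasma carrier of retinol and is also abundant in liver, was at 113 and 101 CPM in forestomach and at 819 and 837 CPM in small intestine, a log2 fold change of -2.95 (SE 0.16, adjusted p = 4.63e-10 by edgeR). Aldh1a2, the gene of an enzyme that makes retinoic acid, was at 6.62 and 6.50 CPM against 53.0 and 23.5 CPM, and Cyp26b1, of an enzyme that degrades it, was at 1.83 and 2.17 CPM against 15.02 and 13.7 CPM. The receptor gene Rarg was higher in forestomach, at 12.1 and 11.8 CPM against 3.79 and 3.63 CPM. So was Crabp2, which encodes a cellular binding protein, at 95.9 and 82.0 CPM against 27.7 and 38.7 CPM. With only the 4 libraries, Rbp4 alone of these 5 was called. The list gave 5 higher and 3 lower without small intestine replicate 2, and without small intestine replicate 1 or forestomach replicate 1 it gave 1 and 2. Crabp2 lost its call without forestomach replicate 1 or small intestine replicate 1, and Cyp26b1 with any library but small intestine replicate 2 left out.

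Of 19 FGF pathway genes, 4 were higher and 1 lower, or 26.3% called beside 10.1% of all genes. The ligand gene Fgf20 was at 3.56 and 6.34 CPM in forestomach with 0 counts in both small intestine libraries, at least 48.8-fold higher. Of the receptor genes, Fgfr3 was called higher and Fgfr4 lower, and Fgfr1 and Fgfr2 were not called. Fgfr3 was at 47.1 and 44.9 CPM in forestomach and at 20.7 and 18.7 CPM in small intestine, a log2 fold change of 1.22 (SE 0.19), and Fgfr4 was at 46.6 and 36.9 CPM against 83.8 and 90.0 CPM, a log2 fold change of -1.06 (SE 0.18). Spred1, which encodes an inhibitor of Ras signals, was at 160 and 186 CPM against 72.0 and 61.3 CPM, a log2 fold change of 1.38 (SE 0.21), and was the 1 member called with only the 4 libraries. The list gave 7 higher and 1 lower without small intestine replicate 2, and without forestomach replicate 2 it gave 3 and 0. Fgfr4 lost its call without forestomach replicate 2.

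Of 26 enteroendocrine and secretory genes, 3 were higher and 2 lower, or 19.2% called beside 10.1% of all genes. Tff3, the trefoil peptide gene of goblet cells, was at 0.388 and 0.569 CPM in forestomach and at 20.9 and 21.3 CPM in small intestine, a log2 fold change of -5.42 (SE 0.37), a call that held in every alternative. Neurog3, the factor gene of endocrine progenitors, was at 1.30 and 2.59 CPM against 10.6 and 8.54 CPM. Ghrl, the gene of the hormone ghrelin, was at 3.98 and 4.48 CPM in forestomach and at 0 and 0.223 CPM in small intestine. Dclk1, known in tuft cells and neurons, was at 5.07 and 7.35 CPM against 0.473 and 1.15 CPM, and Spdef, a factor gene of goblet cells, at 24.7 and 21.7 CPM against 9.27 and 6.44 CPM. The calls of Ghrl, Dclk1, Spdef and Neurog3 were lost with only the 4 libraries. The list gave 10 higher and 3 lower without small intestine replicate 2, and without forestomach replicate 1 it gave 3 and 1. Dclk1 lost its call without forestomach replicate 2 or small intestine replicate 1, and Neurog3 without forestomach replicate 1.

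Few genes of the cell cycle or of the early stress response were called. Of 32 cell cycle genes, 1 was called: Cdc6, a replication licensing gene, was at 91.3 and 93.9 CPM in forestomach and at 30.2 and 47.2 CPM in small intestine. Of 22 immediate early and heat shock genes, which respond to tissue handling, Btg2 was the 1 called, at 51.0 and 42.8 CPM against 11.9 and 20.5 CPM. Both calls were lost without small intestine replicate 1. These shares, 1 of 32 and 1 of 22, lay under the 10.1% of all genes. Btg2 also lost its call without forestomach replicate 1.

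Hypoxia and glycolysis genes were lower in forestomach in 4 of 22 and higher in 1, or 22.7% called beside 10.1% of all genes. The hexokinase genes went in opposite directions: Hk2 was at 27.1 and 27.1 CPM in forestomach and at 81.8 and 60.6 CPM in small intestine, and Hk1 was at 19.7 and 22.3 CPM against 0.71 and 4.75 CPM. Slc2a3, a glucose transporter gene, was at 102 and 114 CPM against 205 and 248 CPM. Egln3, of an oxygen sensor, was at 2.502 and 2.17 CPM against 17.6 and 8.70 CPM, and Car9, of a carbonic anhydrase, at 2.18 and 2.69 CPM against 13.4 and 7.33 CPM. None of these 5 was called with only the 4 libraries. Slc2a3 lost its call also without forestomach replicate 1 and without small intestine replicate 2.

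Among 17 fetal timing and imprinted genes, 0 were higher and 4 were lower, all 4 imprinted, or 23.5% called beside 10.1% of all genes. Dlk1 was at 197 and 207 CPM in forestomach and at 573 and 577 CPM in small intestine, a log2 fold change of -1.51 (SE 0.21). Meg3, a long noncoding RNA of the same imprinted locus, was at 48.0 and 44.0 CPM against 191 and 176 CPM, a log2 fold change of -1.998 (SE 0.25). Mest was at 122 and 117 CPM against 276 and 287 CPM, a log2 fold change of -1.24 (SE 0.18). Phlda2 was at 3.21 and 2.79 CPM against 10.9 and 9.02 CPM. The replicates of each group were close, and Dlk1, Meg3 and Mest were called in every alternative. Dlk1 and Mest are also known in embryonic mesenchyme, whose summed markers stood at 178 and 176 CPM in forestomach and at 378 and 350 CPM in small intestine, with 3 of 17 called lower in forestomach and 1 higher, and the part of other cells in these values was not tested. Phlda2 lost its call without forestomach replicate 2.

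Over all genes, the 10 with the largest log2 fold change above a mean log2 CPM of 3 included Sox2 and Id4 among the higher ones. Cym, the milk-clotting protease gene of the stomach, was at 143 and 142 CPM in forestomach and at 4.36 and 2.23 CPM in small intestine, a log2 fold change of 5.44 (SE 0.35). Anxa1, which encodes a phospholipid-binding protein of squamous epithelia, was at 173 and 191 CPM against 4.67 and 4.94 CPM, a log2 fold change of 5.24 (SE 0.31). Osr1, a zinc finger factor gene of foregut and kidney mesoderm, was at 70.3 and 62.9 CPM against 4.77 and 2.80 CPM, a log2 fold change of 4.14 (SE 0.59). Mecom, which encodes a zinc finger regulator, was at 161 and 185 CPM against 15.9 and 13.4 CPM, a log2 fold change of 3.56 (SE 0.20).

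The other 4 of the 10 were Ly6h, of the Ly6 family, Smoc2, of a matrix protein, Ppp2r2b, of a phosphatase subunit, and Capn6, with log2 fold changes of 4.46, 3.88, 3.78 and 3.27. Capn6, an X-linked calpain-like gene, had the highest level of them, 409 and 412 CPM in forestomach and 42.7 and 42.2 CPM in small intestine. The libraries of the 2 groups did not overlap for any of the 10, although the small intestine replicates of some were apart, as for Id4 at 8.18 and 3.82 CPM. Of the 10, 9 were called in every alternative, the exception being Cym, whose call was lost under voom with sample quality weights.

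On the lower side, Cdx2 and Isx were among the 10. Pth1r, the parathyroid hormone receptor gene, had the highest level, 389 and 390 CPM in small intestine against 3.52 and 2.48 CPM in forestomach, a log2 fold change of -7.03 (SE 0.33, adjusted p = 4.03e-10 by edgeR). Lgals2, a galectin gene of gut epithelium whose promoter is printed above, was at 291 and 294 CPM in small intestine against 4.33 and 3.55 CPM in forestomach, a log2 fold change of -6.22 (SE 0.61). Prdm1, the gene of the Blimp1 repressor known in fetal intestine, was at 82.2 and 71.6 CPM against 0.916 and 1.14 CPM, a log2 fold change of -6.21 (SE 0.29). Osr2, the paralog of Osr1, went the opposite way to it, at 152 and 114 CPM in small intestine against 1.34 and 0.388 CPM in forestomach, a log2 fold change of -7.32 (SE 0.74).

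Folr1, a folate receptor gene, was at 60.5 and 69.0 CPM in small intestine against 1.37 and 0.595 CPM in forestomach, Calml4, a calmodulin-like gene, at 51.0 and 60.03 against 0.881 and 1.60 CPM, and Tdh, of threonine breakdown, at 162 and 212 against 5.00 and 4.79 CPM. Of the 9 named here, 8 were called in every alternative, and Folr1 was lost with DESeq2 and without forestomach replicate 2.

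Markers of other cell types were read in the same libraries. The 17 mesenchyme markers summed to 178 and 176 CPM in forestomach and to 378 and 350 CPM in small intestine, and 3 were lower in forestomach and 1 higher (23.5% called beside 10.1% of all genes), or 4 lower and 1 higher without small intestine replicate 1, 5 and 4 without small intestine replicate 2, and 2 and 2 without forestomach replicate 2. Vim, an intermediate filament gene, was at 54.7 and 44.7 CPM against 170 and 169 CPM. The 8 smooth muscle markers summed to 7.22 and 5.75 CPM against 26.6 and 32.0 CPM, with Acta2 at 1.34 and 1.42 CPM against 11.2 and 13.5 CPM and Mylk at 1.20 and 1.11 CPM against 7.34 and 5.45 CPM. These moved with Wnt5a, Aldh1a2, Gas1 and the 4 imprinted genes that were called, all lower in forestomach, and their part in those values was not tested. Other imprinted genes were not called. In bulk libraries fewer cells of a type and less RNA per cell cannot be told apart.

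The 11 liver markers summed to 200.2 and 175 CPM in forestomach and to 401 and 442 CPM in small intestine, with Ttr at 59.9 and 47.3 CPM against 117 and 134 CPM. Of these 11, 4 were lower in forestomach and 2 higher, or 54.5% called beside 10.1% of all genes, and one of the higher was Alb, the albumin gene, at 8.598 and 7.38 CPM in forestomach and at 0 and 0.319 CPM in small intestine. No liver marker was called higher with voom, with only the 4 libraries or with only the 6 E12 libraries. The sums moved with Apoa1, Apob, Fabp1 and Rbp4, whose differences between groups were larger than that of the marker sum, and their part was not tested. The 9 pancreas markers summed to 125 and 111 CPM against 309 and 311 CPM. Among the 9, 1 was called higher in forestomach and 1 lower, or 22.2% called beside 10.1% of all genes. Cpa1, an acinar enzyme gene, was at 79.9 and 75.9 CPM against 231 and 224 CPM and was not called, while Nkx6-1, of beta cell progenitors, was at 7.93 and 5.95 CPM against 33.0 and 21.4 CPM and was called lower. The 8 lung and trachea markers summed to 306 and 302 CPM against 1120 and 1279 CPM, nearly all of it from Id2, which both organs express. Among the 5 tested, Nkx2-1 and Sftpc were called higher in forestomach and Id2 and Bmp4 lower. That is 80% called beside 10.1% of all genes, with a median log2 fold change of -0.82. Nkx6-1 lost its call with either 1 of the forestomach replicates left out.

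The 10 erythroid markers summed to 270 and 233 CPM in forestomach and to 97.2 and 113 CPM in small intestine, with Hbb-y at 188 and 165 CPM against 63.5 and 85.7 CPM. The 6 mesothelium markers summed to 22.9 and 28.7 CPM against 4.60 and 9.05 CPM, with Msln at 11.8 and 18.6 CPM against 0 and 2.39 CPM. Msln was the 1 called of 5 tested, or 20% beside 10.1% of all genes, and the median log2 fold change was -0.34. Its call was lost with voom, with only the 4 libraries and with only the 6 E12 libraries. In small intestine replicate 1, 5 of the 6 mesothelium markers were at 3 counts or fewer. Sftpc, the surfactant gene of the lung bud chosen after its values were seen, was at 8.67 and 9.21 CPM in forestomach with 0 and 1 counts in small intestine, at least 88.1-fold higher, beside the Nkx2-1 values above. The 12 neural markers summed to 24.6 and 30.5 CPM in forestomach and to 36.2 and 47.5 CPM in small intestine, the 9 endothelium markers to 25.6 and 28.1 CPM against 45.4 and 38.6 CPM, and the 11 immune cell markers to 14.7 and 17.1 CPM against 27.8 and 32.2 CPM. Of each of these 3 lists 2 members were lower in forestomach, and of endothelium 1 was higher, so that 16.7% of the neural, 33.3% of the endothelium and 18.2% of the immune cell markers were called beside 10.1% of all genes. The 8 epithelial markers summed to 4594 and 4544 CPM against 4108 and 4048 CPM. Counts of called markers rested on single libraries in several lists. Without small intestine replicate 2 the neural list gave 5 higher and 3 lower, and the liver list gave 0 higher and 1 lower without forestomach replicate 2.

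The same organs were compared at E14, the next stage of the RNA libraries used here, in separate libraries and the same fit. At E14, 2059 of 17239 genes, 11.9%, were called. Of the 926 genes higher in forestomach at E12, 253 were called higher at E14, 56 were called lower and 617 were not called. Of the 814 lower at E12, 391 were called lower at E14, 22 higher and 401 not. The 644 genes shared in direction were 37.0% of the E12 calls and 31.3% of the E14 calls.

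Whether the difference itself had changed was tested as the E14 difference minus the E12 difference, and 1178 genes, 6.83%, were called. Cdx2 had 0 counts in both E14 forestomach libraries and was at 123 and 152 CPM in E14 small intestine. Isx had 1 and 0 counts in E14 forestomach and was at 184 and 177 CPM in E14 small intestine. Sox2 was at 190 and 153 CPM in E14 forestomach and had 9 and 1 counts in E14 small intestine. For these 3 genes the stage difference was called, in the direction of a wider gap at E14, and the low counts of each gene in the other organ at E12 were near or at 0 at E14.

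Hnf4a, which did not pass the test at E12, was at 13.5 and 17.1 CPM in E14 forestomach and at 219 and 262 CPM in E14 small intestine, and the stage difference was -3.80 on the log2 scale (SE 0.50, adjusted p = 6.33e-05 by edgeR). Ihh was at 24.7 and 32.8 CPM in E14 forestomach and at 170 and 171 CPM in E14 small intestine, a stage difference of -2.91 (SE 0.25). Gata4 had a stage difference of -2.91 (SE 0.30). Onecut2 had 4 and 1 counts in E14 forestomach and was at 144 and 103 CPM in E14 small intestine. Sfrp5 had 1 and 2 counts in E14 forestomach and was at 223 and 224 CPM in E14 small intestine.

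On the forestomach side, Trp63 was at 455 and 458 CPM in E14 forestomach, a stage difference of 5.46 (SE 1.03), and Krt15 was at 1302 and 1369 CPM there, a stage difference of 4.04 (SE 1.22). Some E12 differences turned around. Nkx6-2, higher in forestomach at E12, had 3 and 2 counts in E14 forestomach, a stage difference of -7.75 (SE 0.61). Lgr5 was at 13.2 and 10.4 CPM in E14 forestomach and at 29.9 and 32.4 CPM in E14 small intestine, a stage difference of -4.85 (SE 0.49). Gata3, lower in forestomach at E12, was at 13.1 and 14.3 CPM in E14 forestomach and at 0.476 and 0.237 CPM in E14 small intestine, a stage difference of 7.06 (SE 0.89). Osr2, Tff3, Rbp4, Apoa1, Cym, Anxa1 and Hoxc4 were called in the same direction at both stages with no stage difference called.

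**Figure D5:**
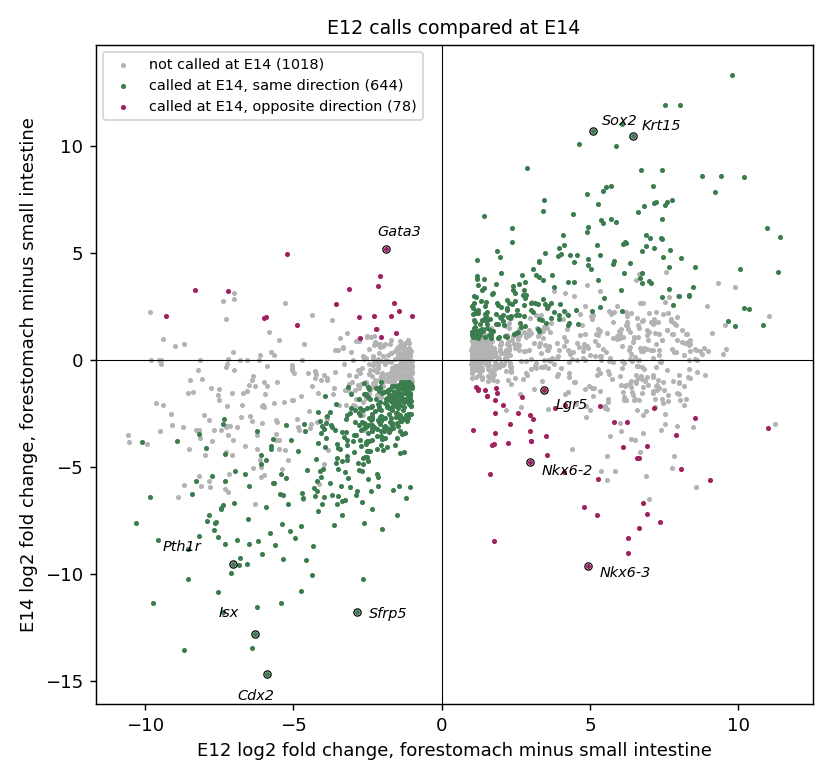
Log2 fold change, forestomach minus small intestine, at E12 (x axis) and at E14 (y axis) for the 1740 genes called at E12; green points are the 644 called at E14 in the same direction, magenta the 78 called in the opposite direction and grey the 1018 not called. Cdx2, Isx and Sfrp5 lie low on the left, and Nkx6-2, Nkx6-3 and Lgr5 fall below 0 on the right; values of genes with 0 counts in a group are fitted and are not bounds.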

How the data were processed

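RNA-seq counts per gene were used from 27 embryonic libraries in 13 groups. The counts are the authors' own raw counts, deposited with no normalization; the submitters' processing notes name Bowtie2, STAR 2.5.3a, MACS2, HTSeq and build mm9, with no role or order. The strand setting and annotation are not given in the sources used here. The table held 24015 named genes, of which 22709 matched the gene name table. Adult libraries (4 columns) and 2 columns that matched no sample were not used, and accessibility and binding data were not analysed here.

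Genes were filtered with filterByExpr (minimum count 10), scaled by TMM and tested in edgeR 4.0.16 (R 4.3.3) with the quasi-likelihood test over all 13 groups, which share 1 estimate of the spread, with Benjamini-Hochberg adjustment over 17239 genes. A call needed an adjusted p under 0.05 and a log2 fold change of at least 1 in size. A floor of 3 counts per library was used for bounds, each the mean CPM of the higher group over that floor, and it covers counting error only. Alternatives used RLE factors, DESeq2 1.42.0, limma 3.58.1 voom with sample quality weights, other filters, other sets of libraries, thinned counts and a replicate block. On simulated data for this comparison, with 16759 genes tested, 16 of 67 genes changed 2-fold, 48 of 67 changed 4-fold and 55 of 66 changed 8-fold were recovered, with 4 false calls. The simulation gave all libraries the shared spread and changed only genes with a mean of at least 1 CPM. It did not hold the low detection of small intestine replicate 1, so its false calls do not describe that library or genes at the floor.

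The lists of genes and the comparison were chosen with earlier results of these data known. Named genes were Cdx2, then per list up to 4 called genes per direction whose groups did not overlap and up to 2 expressed genes not called, the 10 largest differences per direction over all genes above a mean log2 CPM of 3, the 2 most abundant markers of each cell type, and genes that make up a count of 5 or fewer. Chosen after their values were seen were Pdx1, Nkx6-2, Nkx6-3, Trp63, Apoa1, Krt7, Heyl, Hey2, Sftpc, Hoxb13 and Alb. Some genes that the rule names are not reported here. Genes with near-identical copies or antisense partners could share reads.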

Additional observations from a re-analysis of the deposited data

Results flagged for a closer look

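For 45 of the 127 named genes the organ difference itself was called as different between E12 and E14 (edgeR's test of the E14 difference minus the E12 difference, adjusted p under 0.05 and a size of at least 1 on the log2 scale). The background over all genes tested was 6.83%, and the named genes had been chosen by their E12 difference or by name. The value was negative, that is lower in forestomach relative to small intestine at E14 than at E12, for 33 and positive for 12. Where a gene had counts at or near 0 in a group, the fitted value depends on the prior and is not a bound.

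Among transcription factor genes the negative values on the log2 scale were Cdx2 -8.79, Isx -6.52, Onecut2 -7.58, Gata4 -2.91, Hnf4a -3.80, Pdx1 -2.02, Nkx6-2 -7.75, Nkx6-3 -14.57, Nkx2-1 -7.89, Klf5 -1.17, Prdm1 -2.27, Osr1 -3.07 and Mecom -1.15. Among enterocyte and gastric genes the negative values on the log2 scale were Apob -2.97, Myo1a -5.83, Lgals2 -5.36 and Cldn18 -1.92. Among signalling genes the negative values on the log2 scale were Ihh -2.91, Lgr5 -4.85, Wnt2 -10.57, Sfrp5 -8.92, Id4 -2.63, Smad9 -4.99, Bmp3 -12.47, Fgfr4 -1.46 and Pth1r -2.52. Among remaining genes the negative values on the log2 scale were Ghrl -6.46, Spdef -1.97, Cdc6 -1.24, Slc2a3 -4.87, Smoc2 -4.65, Ttr -1.51 and Msln -3.69. The positive values were Sox2 5.58, Trp63 5.46, Gata3 7.06, Krt15 4.04, Upk3a 5.60, Notum 6.12, Wnt5a 2.37, Fst 3.98, Rarg 1.41, Crabp2 5.30, Meg3 1.39 and Acta2 1.89.

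Several of these rest on a change within the libraries labelled forestomach: Nkx6-3 was at 40.7 and 47.9 CPM at E12 and had 0 counts in both libraries at E14, and Gata4 was at 277 and 273 CPM and then at 55.7 and 58.1 CPM. The tissue sampled under that label and the stage cannot be told apart in these values. The genes Krt15, Isx and Pdx1 had adjusted p-values of 0.0477, 0.0389 and 0.0439, close to the threshold of 0.05.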

How the results depend on the processing

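Under RLE size factors, DESeq2, no filter on low counts, the replicate block and without the 2 E12 hindstomach libraries (added after seeing the data), the count of 1740 calls stayed within 1.5 times, at 1728, 2107, 1682, 1752 and 1790. It moved to 526 with voom and sample quality weights (146 higher in forestomach and 380 lower), 188 with only the 4 libraries (75 and 113), 346 with only the 6 E12 libraries (143 and 203), 2834 with no fold minimum (1452 and 1382) and 953 after thinning to the shallowest library (512 and 441). Higher calls were 53.2% of all calls, 27.8% with voom, 39.9% with only the 4 libraries, 41.3% with only the 6 E12 libraries, 46.5% without small intestine replicate 1 and 67.3% without small intestine replicate 2. Leaving out 1 library at a time gave 1102 to 3980 calls (647 to 2677 higher and 455 to 1303 lower), the highest without small intestine replicate 2 and the lowest without forestomach replicate 2; the lone library left was assumed to vary like the other groups. Fewer samples enter those fits and the fits of 4 or 6 libraries, and the cause was not tested for any setting. The voom fit gave small intestine replicates 1 and 2 weights of 0.127 and 0.140, against 0.466 to 0.618 in the other E12 libraries.

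The 1178 calls of the organ difference at E14 minus organ difference at E12 became 644 with voom, 630 after thinning and 901 to 3463 with 1 library left out, the highest without small intestine replicate 2. The 644 E12 calls also called at E14 in the same direction became 349 with voom, 1084 with no fold minimum, 405 after thinning and 478 to 918 with 1 library left out. The shared replicate number pairs no samples by the labels, and same-numbered deviations of the 2 groups correlated at 0.0086; with the replicate block the calls numbered 1752, the stage differences 1279 and the shared calls 681.

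Of the 116 named genes that were called, not counting Alb, 116 remained called with RLE factors, 110 with DESeq2, 62 with voom, 39 with only the 4 libraries, 58 with only the 6 E12 libraries, 81 after thinning, 94 without forestomach replicate 1, 89 without forestomach replicate 2, 94 without small intestine replicate 1 and 107 without small intestine replicate 2. Over all alternatives of named genes, 1444 of 1767 values kept direction and side of the threshold, 311 fell short of it, 10 newly passed it and 2 changed sign. Both sign changes were of Hnf4a, not called at -0.17, which ranged from -0.44 to 0.054 with 1 library left out, and was 0.054 without forestomach replicate 1 and 0.0078 without small intestine replicate 1. Detection in small intestine replicate 1 limits low genes: at 1 to 2 CPM, 44.2% were at 3 counts or fewer there, against 9.59% in small intestine replicate 2.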
